A study of Homo sapiens with 46 samples.

Results

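The comparison set RNA from the nucleus-labelled fraction of ectoderm cells against the same fraction of the human pluripotent stem cells (hPSC) from which they were made. It used 6 of the 46 libraries of the series, 3 of each cell type, taken from the sample titles. Their table columns carry a fraction code that the titles do not spell out, and it was read as nucleus because the other 3 codes match the other 3 fractions. H1 is an established human embryonic stem cell line, kept here on Matrigel in mTeSR1 medium. For ectoderm, H1 cells at partial confluency were moved to DMEM/F12 with non-essential amino acids, β-mercaptoethanol and 15% KOSR (knockout serum replacement). This medium also held 3 small molecules at 2 µM each: A83-01, PNU-74654 and dorsomorphin. Cells were collected after 5 days, and the hPSC received none of these inhibitors. Both cell types were opened with a dilute NP-40 detergent buffer and spun through sucrose. Part of the pellet gave the nucleus-labelled RNA and the supernatant gave the cytoplasm-labelled RNA. The buffers of all groups held α-amanitin, an inhibitor of RNA polymerase II. The labels give 3 repeats per group without saying whether these were separate cultures, so p-values measure the spread between these libraries, which may be technical.

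Human pluripotent cells keep their state through a small set of transcription factors, among them POU5F1, SOX2 and NANOG, and through activin or Nodal and FGF signals from outside. A83-01 blocks the receptor kinases of activin, Nodal and TGF-β. Dorsomorphin blocks BMP receptor kinases, and PNU-74654 was designed to disrupt the binding of β-catenin to TCF factors in the Wnt pathway. Removing activin and BMP signals from pluripotent cells is a standard route to anterior neural ectoderm, the sheet of cells that forms the brain and eye. mRNAs for secreted and membrane proteins are translated on the endoplasmic reticulum, whose membrane is continuous with the outer nuclear membrane.

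The 3 ectoderm libraries held 7738946, 21298678 and 16286790 counts and the 3 hPSC libraries 13957068, 13526158 and 15767053. Ensembl genes numbered 17713 for ectoderm and 15115 for hPSC, of which 13580 were in both and could be compared. The 4133 genes of the ectoderm table alone carried 2.01 to 2.59% of the ectoderm counts, and the 1535 of the hPSC table alone carried 1.32 to 1.43% of the hPSC counts. Each cell type was counted on its own transcript assembly, so the assembly and the cell type cannot be told apart. Values below are in CPM, a gene's counts scaled to a common total of Ensembl-gene counts per library and not corrected for length, and changes are log2 of ectoderm over hPSC with their standard error. A change was called at a Benjamini-Hochberg adjusted p under 0.05 in edgeR's quasi-likelihood test.

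Of the transcripts known to stay in the nucleus, MALAT1 and NEAT1 went against the fraction label in both cell types, and SNHG14 and MEG3 in ectoderm alone. MALAT1, a long noncoding RNA of nuclear speckles, stood at 306, 34.4 and 166 CPM in the nucleus-labelled ectoderm libraries and at 2185, 1217 and 1701 CPM in the cytoplasm-labelled ones. In hPSC it stood at 75.5, 99.6 and 76.1 CPM against 239, 278 and 226 CPM. In both cell types the nucleus-labelled libraries were the lower, with no overlap. NEAT1, the RNA scaffold of paraspeckles, was also lower in each nucleus-labelled library, at 2.41 to 7.02 CPM against 36.9 to 40.9 CPM in ectoderm and at 0.899 to 1.77 CPM against 2.81 to 4.13 CPM in hPSC. SNHG14, a long nuclear RNA of the Prader-Willi region, stood at 124, 55.9 and 102 CPM in the nucleus-labelled against 241, 200.4 and 216 CPM in the cytoplasm-labelled ectoderm libraries. In hPSC it ran the way of the label, at 852, 1039 and 783 CPM against 651, 712 and 750 CPM. MEG3, a chromatin-bound RNA, was likewise lower in ectoderm, at 25.3 to 52.9 CPM against 68.0 to 79.5 CPM, and overlapped in hPSC, at 1.28 to 1.85 CPM against 0.504 to 1.45 CPM. Genes of the mitochondrial genome carried 8.20, 10.3 and 10.2% of the counts of the nucleus-labelled ectoderm libraries and 13.3, 13.8 and 15.5% of those of hPSC. The cytoplasm-labelled libraries held a mean of 1.32% and 0.546%. The share of mitochondrial RNA was higher in every nucleus-labelled library than in the cytoplasm-labelled ones, and was 9.54% ± 1.17 (SD, n = 3) in ectoderm and 14.2% ± 1.17 (SD, n = 3) in hPSC. The difference of -4.67 percentage points had an exact two-sided permutation p of 0.1, the smallest that 3 against 3 can give.

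**Figure D1:**
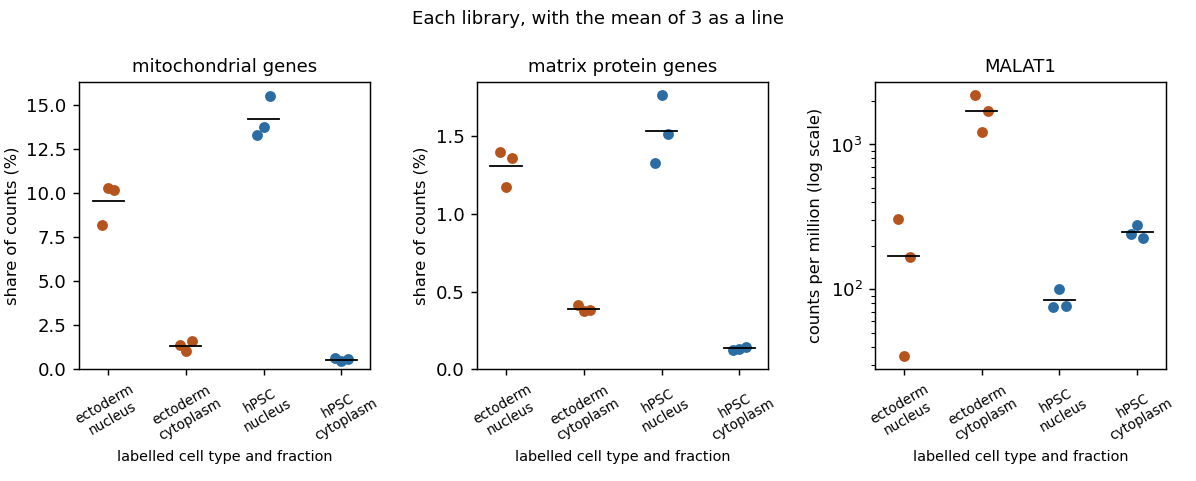
Mitochondrial share of counts (%), share of counts in matrix protein genes (%) and MALAT1 level (CPM, log axis) in the nucleus-labelled and cytoplasm-labelled libraries of ectoderm and hPSC. Each point is 1 library and each line a group mean. Mitochondrial and matrix shares were higher in the nucleus-labelled libraries of both cell types, and MALAT1 was lower there.

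Ectoderm replicate 2 stood apart from its partners. The chi-square of its gene counts per degree of freedom was 47.7 against replicate 1 and 46.05 against replicate 3, while replicates 1 and 3 gave 7.63 and the hPSC pairs 11.13 to 20.59. It was the deepest library and the lowest for MALAT1. No pair agreed within counting error, so all libraries were kept as separate samples. Results below that changed call or moved by over 1.5 times without replicate 2 are given both ways.

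The hosts of miR-302/367 and miR-34a differed between the cell types, and mature products are shown because they group by seed. The seed is the stretch of bases 2 to 8 that pairs with target mRNAs, in capitals below. MIR302CHG is the host transcript of the miR-302/367 cluster, a microRNA family typical of human pluripotent cells. MIR34AHG is the host of miR-34a, a microRNA known as a p53 target.
hsa-miR-302a-3p: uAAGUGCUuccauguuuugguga
hsa-miR-302b-3p: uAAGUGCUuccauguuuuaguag
hsa-miR-302c-3p: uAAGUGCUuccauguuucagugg
hsa-miR-302d-3p: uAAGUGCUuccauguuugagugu
hsa-miR-367-3p: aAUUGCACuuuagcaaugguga
hsa-miR-34a-5p: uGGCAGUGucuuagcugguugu

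The 4 miR-302 sequences share the seed AAGUGCU. The miR-367 seed is AUUGCAC and that of miR-34a is GGCAGUG. In the RefSeq annotation of GRCh38.p14 the 5 mature sequences of the cluster lie on the minus strand of chromosome 4 within 635 bases, from miR-367-3p at chr4:112647877-112647898 to miR-302b-3p at chr4:112648489-112648511. The miR-34a-5p sequence lies on the minus strand at chr1:9151735-9151756. The libraries measured the host transcripts and not the mature microRNAs.

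MIR302CHG stood at 8.32, 8.73 and 14.4 CPM in the ectoderm libraries and at 405, 503 and 431 CPM in the hPSC libraries. Every hPSC library lay far above every ectoderm library. The log2 change was -5.28 ± 0.23 (edgeR adjusted p = 1.9e-07), and it was -5.49 on transcripts present in both assemblies. The host overlaps LARP7 on the opposite strand. Strand use in counting is not given in the sources used here, so reads of the pair cannot be told apart. LARP7 itself stood at 4.86 ± 2.10 CPM (SD, n = 3) in ectoderm and 13.2 ± 1.38 CPM (SD, n = 3) in hPSC.

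MIR34AHG went the other way, from 0.292, 2.85 and 1.03 CPM in hPSC to 33.9, 11.8 and 26.2 CPM in ectoderm, a log2 change of 4.18 ± 0.58 (edgeR adjusted p = 2.0e-04). Its ectoderm libraries spread widely, with replicate 2 the lowest, and none overlapped hPSC. The counts of MIR34AHG summed 4 transcripts in ectoderm and 1 in hPSC. It had no value on transcripts present in both assemblies, so its fold compares different models. Of the 14 microRNA host genes tested, 4 rose and 5 fell, where over all genes 31.4% rose and 32.5% fell. MIR124-1HG, host of the neural microRNA miR-124, had the largest change of the 14, from 116, 164 and 119 CPM in hPSC to 1.17, 0.236 and 0.369 CPM in ectoderm (-8.02 ± 0.34). MIR210HG, host of the hypoxia-responsive miR-210, changed by -2.43, from 8.61, 9.77 and 9.06 CPM to 1.82, 1.18 and 1.79 CPM. MIR23AHG, host of miR-23a, rose by 1.22 from a level of 1.46 to 1.93 CPM, and it too had no value on transcripts present in both assemblies.

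The window of 250 bases before to 50 after one of the annotated MIR302CHG starts, chr4:112650002-112650301 on the minus strand of GRCh38.p14 (RefSeq), is printed because it holds the octamer ATGCAAAT, in capitals, the sequence that POU-family factors such as POU5F1 recognise.
MIR302CHG promoter: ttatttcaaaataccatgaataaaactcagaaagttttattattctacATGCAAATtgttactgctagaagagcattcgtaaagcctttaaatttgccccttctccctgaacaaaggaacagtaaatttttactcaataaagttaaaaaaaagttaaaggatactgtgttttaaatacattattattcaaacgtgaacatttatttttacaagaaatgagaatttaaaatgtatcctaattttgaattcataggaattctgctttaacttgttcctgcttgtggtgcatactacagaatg
The match lies 202 bases before the start. The window at the other annotated start, chr4:112648654-112648953, had no match on either strand (ATGCAAAT or its reverse complement ATTTGCAT). Of 35116 RefSeq promoter windows of this length, 623 (1.77%) held the octamer. A match describes the letters of the window only, and these data hold no measurement of binding there.

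Across all genes, 13017 passed the filter on low counts and 8319 were called, 63.9% of those tested. Of these, 4088 were higher and 4231 lower in ectoderm, and 8963 genes (68.9%) had groups of libraries that did not overlap. At least a 2-fold change was called for 2271 genes upward and 2697 downward. The split depended on the processing. On the authors' TPM, a length-corrected share of a library, only 2150 of 7355 calls, 29.2%, were upward, against 49.1% here. The median change of all genes there was -0.37 in place of -0.02. That setting also changed the test, the filter and the scaling, so the part of the unit alone was not tested. Scaling the counts by their totals in place of TMM gave a median of -0.13.

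By a rule of size among called genes, the largest rises included LRP2, EPHA4, ZBTB16, B4GALT5 and MEX3D. LRP2 encodes megalin, a large endocytic receptor needed for forebrain development. It stood at 277, 163 and 273 CPM in ectoderm and 0.292, 0.538 and 0.642 CPM in hPSC, a log2 change of 8.96 ± 0.27 (edgeR adjusted p = 4.1e-08). EPHA4, an ephrin receptor of the early neural plate and hindbrain, stood at 466, 346 and 470.0 CPM against 1.24, 1.38 and 0.835 CPM (8.64 ± 0.20). Every hPSC library held under 2 CPM of either transcript. ZBTB16, a zinc-finger factor of neural progenitors, rose by 8.56, B4GALT5, which makes lactosylceramide, by 8.43, and MEX3D, an RNA-binding protein, by 8.36. Of the genes named by this rule for a rise, ZBTB16 alone had a value on transcript models shared by both assemblies (8.65), so the folds of the others compare different models. The list also held 4 genes at 0 in each hPSC library: GUSBP13 (at least 72.9-fold higher), ZNF702P (56.0), ZFP14 (51.7) and SLCO1A2 (51.7). These bounds set the ectoderm mean against a floor of 3 counts per library. OR4F16, GUSBP13 and ZNF702P belong to families of near-identical copies, and their counts are uncertain.

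The falls by the same rule included TDGF1, FOXD3-AS1, SERF1A and LPL, each at 0 in every ectoderm library, so they have bounds and no rank. TDGF1 encodes CRIPTO, the membrane co-receptor through which Nodal signals. It stood at 675, 672 and 736 CPM in hPSC, at least 2909-fold higher than in ectoderm. TDGF1 has retrogene copies that counting could mix with it, and SERF1A has the near-identical copy SERF1B, so both are uncertain. FOXD3-AS1, antisense to the pluripotency factor gene FOXD3, was at least 208-fold higher in hPSC, and LPL, lipoprotein lipase, at least 42.4-fold. The hPSC transcript LNCPRESS1 fell from 33.9, 24.5 and 27.0 CPM to a single nonzero ectoderm library at 0.0472 CPM. HDAC2-AS2, which overlaps HDAC2 on the other strand, fell from 809.6, 516 and 565 CPM to 0.650, 0.330 and 1.11 CPM (-9.71 ± 0.34). CUZD1 (-9.63, and -8.92 without replicate 2) and the tetraspanin TSPAN9 (-9.44) completed the group with PRDM14. LNCPRESS1, HDAC2-AS2 and TSPAN9 had no value on transcript models shared by both assemblies, so their falls may compare different models. The bound of FOXD3-AS1 sets 10 hPSC transcripts against 1 of ectoderm.

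Pluripotency genes fell as a group, with exceptions. Of 29 listed, 23 were tested, and 17 were lower, 3 higher and 3 uncalled in ectoderm, with a median change of -3.31 against -0.02 for all genes. In 22 of the 23 the groups of libraries did not overlap, where over all genes tested 68.9% did not. For this list and those below, the shares of all genes tested were 31.4% higher and 32.5% lower. TDGF1 enters this median at its fitted value, and its bound lies on the same side. Here and in the lists below, members that were not tested had a transcript for 1 cell type only, fell under the filter or were found in neither table. POU5F1 (ENSG00000204531), the central factor of the pluripotent state, stood at 7.93, 6.93 and 8.31 CPM in ectoderm and 1373, 809.9 and 966 CPM in hPSC. No library came near the other group. Its change was -6.96 ± 0.25 (edgeR adjusted p = 7.5e-08). PRDM14, which represses differentiation genes with Polycomb, stood at 0.130, 0.0472 and 0.0616 CPM against 40.9, 44.5 and 44.5 CPM (-9.02 ± 0.28). ESRG, a long noncoding RNA driven by an HERVH element and typical of human pluripotent cells, stood at 7.67, 7.83 and 9.73 CPM against 1857, 1587 and 1524 CPM (-7.49 ± 0.21). Its highest ectoderm library was still under 10 CPM.

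DNMT3B, the de novo DNA methyltransferase of early embryonic cells, fell less, from 1979, 1819 and 1912 CPM to 124, 103 and 144 CPM (-3.84 ± 0.17). On transcript models shared by both assemblies its change was -7.04. TERF1, a telomere-binding protein, stood at 23.3, 8.21 and 17.1 CPM against 521, 604 and 495 CPM, with ectoderm replicate 2 the lowest (-5.02 ± 0.29). L1TD1, an RNA-binding protein of embryonic stem cells, changed by -4.11, ZSCAN10 by -4.39, TERT, the telomerase catalytic subunit, by -3.98, DPPA4 by -2.38 and ZFP42 by -1.79.

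The 3 genes of the list that rose were SOX2, LIN28A and TFAP2C. SOX2, which marks neural progenitors as well as pluripotent cells, stood at 520.2, 405 and 513 CPM in ectoderm and 338, 354 and 355 CPM in hPSC, and every ectoderm library was above every hPSC library. Its change was 0.56 ± 0.12 (edgeR adjusted p = 0.0029). On the authors' TPM it was 0.30 with adjusted p = 0.15 (limma), so that call depends on the processing. LIN28A, an RNA-binding protein that blocks let-7 processing, stood at 2121, 2250.4 and 2119 CPM against 1659, 1144 and 1294 CPM (0.79 ± 0.20). TFAP2C, an AP-2 factor, stood at 24.6, 18.4 and 23.3 CPM against 7.52, 7.61 and 6.87 CPM (1.70 ± 0.16).

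A further 5 pluripotency genes had transcripts in the hPSC table only, so no change was computed for them. NANOG stood at 60.4, 40.5 and 48.3 CPM in the hPSC libraries, FOXD3 at 35.0, 35.4 and 38.4 CPM and IDO1, a tryptophan-degrading enzyme, at 62.8, 63.1 and 53.1 CPM. GDF3, a Nodal-related ligand, stood at 14.1, 13.6 and 14.8 CPM. DPPA2 was the lowest, at 5.55, 2.08 and 2.83 CPM, and the most spread for its level. Ectoderm values were not analysed here for them, since genes were compared only where both assemblies held a transcript.

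**Figure D2:**
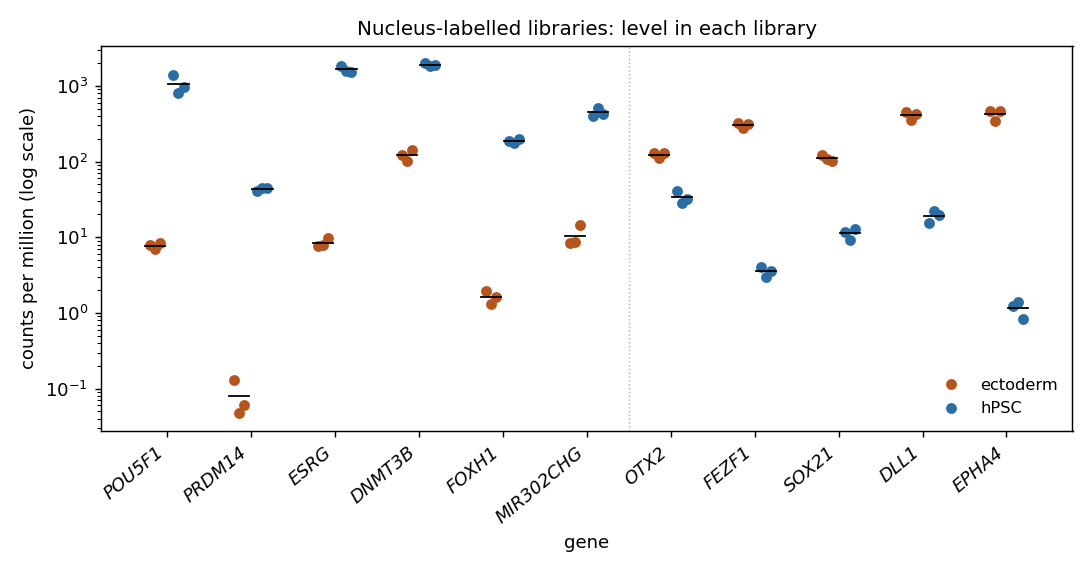
Levels (CPM, log axis) of 11 genes in the 3 ectoderm and 3 hPSC nucleus-labelled libraries. Points are libraries and lines group means. POU5F1, PRDM14, ESRG, DNMT3B, FOXH1 and MIR302CHG were lower in every ectoderm library, and OTX2, FEZF1, SOX21, DLL1 and EPHA4 higher.

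Neuroectoderm genes rose as a group. Of 44 listed, 20 were tested, and 14 were higher, 5 lower and 1 uncalled, with a median change of 1.65. FEZF1, a forebrain transcription factor, stood at 325, 276 and 314 CPM in ectoderm and 4.09, 3.00 and 3.60 CPM in hPSC (6.53 ± 0.16, edgeR adjusted p = 1.4e-08). The whole hPSC group was under 5 CPM. OTX2, the fore- and midbrain factor that pluripotent cells also express, stood at 129, 111 and 129 CPM against 41.2, 28.3 and 32.4 CPM (1.97 ± 0.15), and its paralog OTX1 rose by 3.56. SOX21, which limits progenitor renewal, stood at 123, 107 and 101 CPM against 11.8, 9.23 and 12.7 CPM (3.40 ± 0.17). GLI3, the transcriptional effector that opposes Hedgehog signals in the dorsal forebrain, stood at 142, 119 and 139 CPM against 23.0, 21.2 and 20.8 CPM (2.73 ± 0.11). SOX11 stood at 554, 248 and 519.7 CPM against 88.9, 84.5 and 73.4 CPM. Its ectoderm replicate 2 was well under the other two libraries but still above every hPSC library.

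Other members of the list rose by 3.11 (ZNF521, an early neural inducer), 2.71 (POU3F1), 4.33 (FABP7, the radial glial fatty acid binding protein) and 1.21 (NES, the progenitor intermediate filament). CDH2, the N-cadherin of neural epithelium, stood at 217, 162 and 207 CPM against 78.6, 91.0 and 80.6 CPM (1.33 ± 0.12). The 5 members that fell included the zinc-finger factor ZIC5, from 77.5, 80.4 and 69.2 CPM to 28.2, 20.7 and 30.1 CPM (-1.42 ± 0.13). The lowest change among the 20 tested was -3.57, in another gene.

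The ectoderm table alone held 16 more neuroectoderm genes, several of them markers of the anterior neural plate and eye field. PAX6 stood at 109.8, 111 and 128 CPM in the 3 ectoderm libraries, SIX3 at 146, 128 and 130.1 CPM and RAX, an eye field factor, at 294, 268 and 263 CPM. LHX2 stood at 125, 121 and 121 CPM and LHX5 at 38.2, 38.2 and 41.1 CPM. The telencephalic factor SP8 stood at 115, 79.6 and 103 CPM. Of the genes of this group, DACH1 (28.5, 15.3 and 25.2 CPM) was more spread for its level than SP8, and ZIC1 and ZIC4 were under 1 CPM.

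Lists for other cell types that such a culture can hold moved less uniformly. Neuron markers gave 2 higher and 4 lower of 6 tested, and together carried 0.0192 to 0.0302% of counts in ectoderm and 0.0173 to 0.0193% in hPSC. MAP2, a dendritic microtubule protein, stood at 191, 116 and 162 CPM against 2.63, 1.77 and 3.08 CPM (6.05 ± 0.22), while TUBB3 (-1.06), NEFL (-3.13) and NEFM (-1.70), proteins of the neuronal cytoskeleton, fell. NEUROG2, a proneural factor of the ectoderm table alone, stood at 73.2, 70.4 and 76.2 CPM. Neural crest and non-neural ectoderm markers gave 5 higher and 2 lower of 8 tested, with a summed level of 0.237 to 0.257% in ectoderm and 0.199 to 0.202% in hPSC. Among them MSX2 rose by 3.84, SOX9 by 1.96, and the simple epithelial keratins KRT18 and KRT19 by 0.94 and 1.89, while CDH1, E-cadherin, changed by -1.49. The ectoderm table alone held 9 more markers of this list, for which no change was computed. SOX10, a crest factor, was the highest of them, at 32.4, 35.8 and 34.5 CPM. DLX5 stood at 16.6, 11.4 and 13.2 CPM and DLX3 at 11.6, 11.2 and 13.4 CPM. In such bulk libraries a change in the number of cells of a type and a change in RNA per cell cannot be told apart.

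Mesoderm markers gave 3 higher and 1 lower of 5 tested, with a summed level of 0.00791 to 0.0123% in ectoderm and 0.0410 to 0.0494% in hPSC. KDR, the VEGF receptor, set the higher hPSC sum at 398, 482 and 430.1 CPM against 8.71, 6.74 and 7.70 CPM in ectoderm (-5.72 ± 0.16). HAPLN1, a hyaluronan link protein, rose by 5.83, PDGFRA by 1.50 and SNAI1 by 1.42. Of 13 endoderm markers 11 were found in neither table and 1 was tested, PRDM1 (log2 change 2.51). Of 13 amnion-like and extraembryonic markers 10 were found in neither table and 2 were tested, 1 higher and 1 lower. The summed level of these 2 was 0.00522 to 0.00577% in ectoderm and 0.00365 to 0.00434% in hPSC. The part of other cell types in the results was not tested.

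Of 32 listed activin and Nodal pathway genes, 19 were tested, and 7 were higher, 7 lower and 5 uncalled (median -0.09). Over all genes 31.4% rose and 32.5% fell. For this list, on transcript models shared by both assemblies 1 was higher and 6 lower of 14, and on the authors' TPM 3 were higher and 8 lower of 17. In the cytoplasm-labelled libraries 9 were higher and 7 lower (median 0.38), where over all genes 35.9% were higher and 36.1% lower. The same cytoplasm-labelled shares apply to the lists below. The nucleus-labelled falls included the co-receptor TDGF1. FOXH1, the DNA-binding partner of SMAD2 and SMAD3, stood between 1.32 and 1.95 CPM in the 3 ectoderm libraries and at 189, 175 and 199 CPM in hPSC (-6.77 ± 0.16, edgeR adjusted p = 1.4e-08). No ectoderm library came near an hPSC one. SKIL, a feedback inhibitor of SMAD signalling, stood at 3.64, 0.236 and 2.03 CPM against 42.0, 52.0 and 40.6 CPM (-4.66 ± 0.53, and -4.08 without replicate 2). The type II receptor ACVR2A changed by -1.34. SMAD3 went the other way, at 44.4, 42.1 and 53.7 CPM against 23.6, 22.4 and 23.0 CPM (1.14 ± 0.14), and the ligand TGFB2 rose by 3.44.

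Ligands and feedback targets of this pathway were among the 7 genes of the hPSC table alone. INHBE, an activin subunit that the integrated stress response induces, stood at 141, 164 and 165 CPM. NODAL stood at 2.92, 2.69 and 2.51 CPM, LEFTY1 at 0.511, 0.538 and 1.03 CPM and LEFTY2 at 1.02, 0.769 and 0.450 CPM. LEFTY1 and LEFTY2 are near-identical neighbours and uncertain.

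BMP pathway genes gave 9 higher, 3 lower and 7 uncalled of 19 tested (median 0.43), and 4 higher and 4 lower of 18 on the authors' TPM. In the cytoplasm-labelled libraries 12 were higher and 2 lower (median 0.67). BMP4, a ligand, stood at 39.1, 36.0 and 42.2 CPM in ectoderm and 4.31, 3.15 and 3.66 CPM in hPSC (3.51 ± 0.18, edgeR adjusted p = 4.1e-07). ID1, a helix-loop-helix inhibitor and direct BMP target, stood at 206, 203 and 169 CPM against 101, 90.8 and 105 CPM (1.08 ± 0.15), and ID4 rose by 2.35. The cytoplasm-labelled change of ID1 was -0.07. BAMBI, a pseudoreceptor that BMP signals induce, stood at 3.38, 3.87 and 3.33 CPM against 15.3, 19.5 and 18.2 CPM (-2.18 ± 0.23). All groups of these genes were apart. The ectoderm table alone held the ligand BMP2 at 26.0, 22.6 and 25.8 CPM, the antagonist CHRD at 7.67, 11.4 and 10.8 CPM and the inhibitory SMAD6 at 14.7, 12.4 and 10.6 CPM.

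Wnt pathway genes gave 12 higher, 16 lower and 8 uncalled of 36 tested (median -0.23), with 10 higher and 9 lower of 29 on shared transcript models. In the cytoplasm-labelled libraries 18 were higher and 9 lower (median 0.46). The nucleus-labelled minus the cytoplasm-labelled change was called negative for 18 and positive for 2, where over all genes 25.5% were negative and 24.7% positive. WLS, the carrier that brings Wnt ligands to the cell surface, stood at 154, 158 and 170.0 CPM against 6.79, 7.77 and 7.26 CPM (4.59 ± 0.15). The receptors FZD2 and FZD5 stood at 623, 599 and 579 CPM against 43.3, 50.6 and 50.6 CPM (3.76 ± 0.16) and 833, 447 and 776 CPM against 79.8, 92.8 and 85.3 CPM (3.08 ± 0.19). FZD1 rose by 4.03, while FZD7, the main Wnt receptor of human pluripotent cells, changed by -0.98. Among secreted antagonists, FRZB stood at 174, 187 and 171 CPM against 9.63, 12.5 and 11.1 CPM (4.12 ± 0.18) and WIF1 changed by -4.88. Receptors for noncanonical Wnt signals split, ROR2 at 2.05 and ROR1 at -1.96 ± 0.18, though ROR1 rose by 0.78 in the cytoplasm-labelled libraries. TCF7L2, a nuclear partner of β-catenin, changed by -1.14. Of genes in the ectoderm table alone, FZD8 stood at 191, 173 and 202 CPM, WNT5B at 138, 138 and 124 CPM and the co-receptor LRP6 at 105, 36.4 and 95.3 CPM, with LRP6 lowest in replicate 2.

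FGF pathway genes gave 11 higher, 9 lower and 2 uncalled of 22 tested. Their median of 0.55 turned to -0.05 on shared transcript models, so no direction is given for the group, and on the authors' TPM 7 were higher and 10 lower. FGF2, the ligand that stem cell media supply, stood at 31.4, 10.3 and 26.3 CPM in ectoderm and 121, 134 and 121 CPM in hPSC (-2.42 ± 0.28), and FGF19 changed by -4.74. The receptors FGFR1, FGFR2 and FGFR4 changed by -0.67, -2.56 and -1.62. Feedback inhibitors were divided, SPRY4 at -3.31 and DUSP4 at 2.69. The transcriptional target ETV5 rose by 1.40. In the ectoderm table alone, the ligand FGF8 of the anterior neural ridge stood at 63.7, 63.7 and 56.1 CPM and FGFR3 at 55.9, 43.3 and 58.9 CPM.

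Notch pathway genes gave 13 higher, 6 lower and 5 uncalled of 24 tested (median 0.46), and 8 higher and 6 lower on the authors' TPM. In the cytoplasm-labelled libraries 17 were higher and 3 lower (median 1.22). The nucleus-labelled minus the cytoplasm-labelled change was called negative for 12 and positive for 2, where over all genes 25.5% were negative and 24.7% positive. The ligand DLL1 stood at 450.4, 354 and 422 CPM against 15.3, 22.4 and 19.7 CPM (4.52 ± 0.18), and the ligand JAG1 rose by 1.30, while DLL3, which inhibits Notch within the cell, changed by -2.60. HES1 and HES4, repressors that Notch induces, rose by 1.58 and 5.67, and HEY2 changed by -4.29. MFNG, a glycosyltransferase that modifies Notch, rose by 3.16.

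Genes for matrix, adhesion and guidance proteins changed differently in the nucleus-labelled and the cytoplasm-labelled libraries. The nucleus-minus-cytoplasm difference, tested as an interaction term in edgeR over the 12 libraries of both fractions, was called for 6656 of 13268 genes, 50.2%, with 24.7% positive and 25.5% negative. In the cytoplasm-labelled libraries 35.9% of genes were higher and 36.1% lower in ectoderm, with a median change of 0.00. The median difference of all genes was -0.06, or -0.25 without TMM scaling. Cytoplasm-labelled changes and calls, here and elsewhere, came from a fit over all 4 fractions of ectoderm and hPSC. In that fit the nucleus-labelled comparison had 9191 calls in place of 8319, so call counts of the fractions rest on unlike fits.

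Of 74 matrix protein genes 62 were tested. In the nucleus-labelled libraries 16 were higher, 30 lower and 16 uncalled (median -0.34). In the cytoplasm-labelled libraries 44 were higher and 11 lower (median 1.26). The difference was negative for 55 of the 62 and positive for 0, with a median of -1.66. On shared transcript models 10 were higher and 22 lower of 43. The same 62 genes carried 1.31% ± 0.122 (SD, n = 3) of counts in the nucleus-labelled ectoderm libraries and 1.54% ± 0.219 in hPSC, against 0.390% ± 0.0192 and 0.134% ± 0.0107 in the cytoplasm-labelled ones. Matrix transcripts thus took a larger share of every nucleus-labelled library, and the excess was greater in hPSC.

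COL5A1, a fibrillar collagen chain, stood at 42.8, 31.9 and 42.4 CPM in nucleus-labelled ectoderm and 76.8, 96.3 and 76.6 CPM in nucleus-labelled hPSC (-0.99 ± 0.14). Its cytoplasm-labelled levels were 20.3, 21.6 and 21.6 CPM against 4.60, 5.90 and 6.12 CPM, a log2 change of 1.86. Ectoderm was thus the lower in one fraction and the higher in the other, and the difference was -2.83 ± 0.19 (edgeR adjusted p = 1.5e-06). FN1, fibronectin, stood at 164, 169 and 184 CPM against 451, 578 and 481 CPM (-1.43 ± 0.15) and at 30.4, 25.3 and 27.8 CPM against 13.7, 20.3 and 22.0 CPM in the cytoplasm-labelled libraries, with a difference of -1.91 ± 0.23. COL1A1 and COL1A2, the chains of type I collagen, changed by -1.25 and -1.18 in the nucleus-labelled libraries and by 0.35 and 0.51 in the cytoplasm-labelled ones. COL14A1, which associates with fibrils, stood at 21.3, 13.6 and 17.6 CPM against 117, 155 and 137 CPM (-2.88 ± 0.16), while its cytoplasm-labelled change was -0.18. In all, 13 matrix genes were called lower in one fraction and higher in the other in this sense and 0 in the reverse one, where over all 13015 genes in both tests 439 (3.37%) and 431 (3.31%) were.

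Some matrix genes rose in both fractions. COL2A1, the collagen of cartilage and notochord that early neuroepithelium also makes, stood at 1058, 876 and 964 CPM against 35.1, 51.3 and 44.9 CPM (4.57 ± 0.19). FBN2, a fibrillin of embryonic tissue, stood at 1422, 1040.1 and 1386 CPM against 136, 168 and 128 CPM (3.26 ± 0.17), and its cytoplasm-labelled change was 5.66. LAMB1, a laminin β chain, stood at 619, 339 and 561 CPM against 166, 261 and 179 CPM (1.41 ± 0.21), and its cytoplasm-labelled change was 4.21. Even for FBN2 and LAMB1 the nucleus-labelled change was the smaller, with differences of -2.38 and -2.78. TNC, tenascin C, rose by 3.44 and FBN1 by 2.49. THBS2, MATN3, COL6A3 and HAPLN3 changed by -5.76, -5.17, -4.17 and -3.19.

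Adhesion receptors gave 11 higher, 28 lower and 5 uncalled of 44 tested (median -1.01), and 21 higher and 10 lower in the cytoplasm-labelled libraries (median 0.53). The difference was negative for 35 and positive for 1. On shared transcript models 5 were higher and 21 lower of 31. EPCAM, the epithelial adhesion molecule of pluripotent cells, stood at 42.8, 23.7 and 39.7 CPM against 243, 327 and 279 CPM (-2.92 ± 0.19), with a cytoplasm-labelled change of -0.20. ITGA6, the laminin receptor subunit, stood at 70.0, 39.4 and 63.9 CPM against 367, 523 and 449 CPM (-2.87 ± 0.20), and ITGB1, its partner, at 312, 157 and 266 CPM against 424, 530.5 and 504 CPM (-0.91 ± 0.19). Replicate 2 was the lowest ectoderm library for all 3. CELSR1, a planar polarity cadherin, stood at 45.7, 22.6 and 39.7 CPM against 153, 198 and 173 CPM (-2.20 ± 0.20) while rising by 0.97 in the cytoplasm-labelled libraries. L1CAM, a neural cell adhesion molecule, stood at 6.50, 5.90 and 9.54 CPM against 172, 202 and 186 CPM (-4.55 ± 0.19). The mesenchymal cadherin CDH11 and the protocadherin PCDH18 rose by 3.26 and 2.27, and the claudins CLDN6 and CLDN7 changed by -1.71 and -2.19.

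Guidance receptors and ligands gave 14 higher, 15 lower and 11 uncalled of 40 tested (median -0.22), with 4 higher and 11 lower of 27 on shared transcript models. Cytoplasm-labelled, 23 were higher and 6 lower, and the difference was negative for 26 and positive for 0. SEMA6B, a transmembrane semaphorin, stood at 689, 598 and 630.4 CPM against 25.5, 26.3 and 21.0 CPM (4.84 ± 0.15). EFNB1, an ephrin ligand, stood at 163, 169 and 167 CPM against 15.3, 12.5 and 15.2 CPM (3.66 ± 0.15), and the receptor EPHB3 rose by 3.88. EPHA1, the netrin receptor UNC5B and ROBO3 changed by -2.49, -3.49 and -3.08.

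Next came the machinery of the secretory pathway. Of 42 genes, 8 were higher, 19 lower and 15 uncalled in the nucleus-labelled libraries (median -0.31), and 25 were higher and 6 lower in the cytoplasm-labelled ones (median 0.59). On shared transcript models 9 were higher and 12 lower of 41, and on the authors' TPM 5 and 26 of 42. CANX, the membrane chaperone calnexin, stood at 759, 549 and 775 CPM against 1209.8, 1352 and 1319.9 CPM (-0.80 ± 0.15), with 0.97 in the cytoplasm-labelled libraries. PDIA3, a disulfide isomerase, stood at 898, 739.7 and 859 CPM against 1703, 2046 and 1798 CPM (-1.04 ± 0.16), with 0.34. DDOST, a subunit of the oligosaccharyltransferase, changed by -0.79 and 0.93. These 3 are among 14 members that were called lower in the nucleus-labelled and higher in the cytoplasm-labelled libraries. The 8 that were higher included OST4, at 43.9, 64.9 and 56.0 CPM against 30.7, 18.0 and 20.0 CPM (1.41 ± 0.25), and SEC61G at 1.37.

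**Figure D3:**
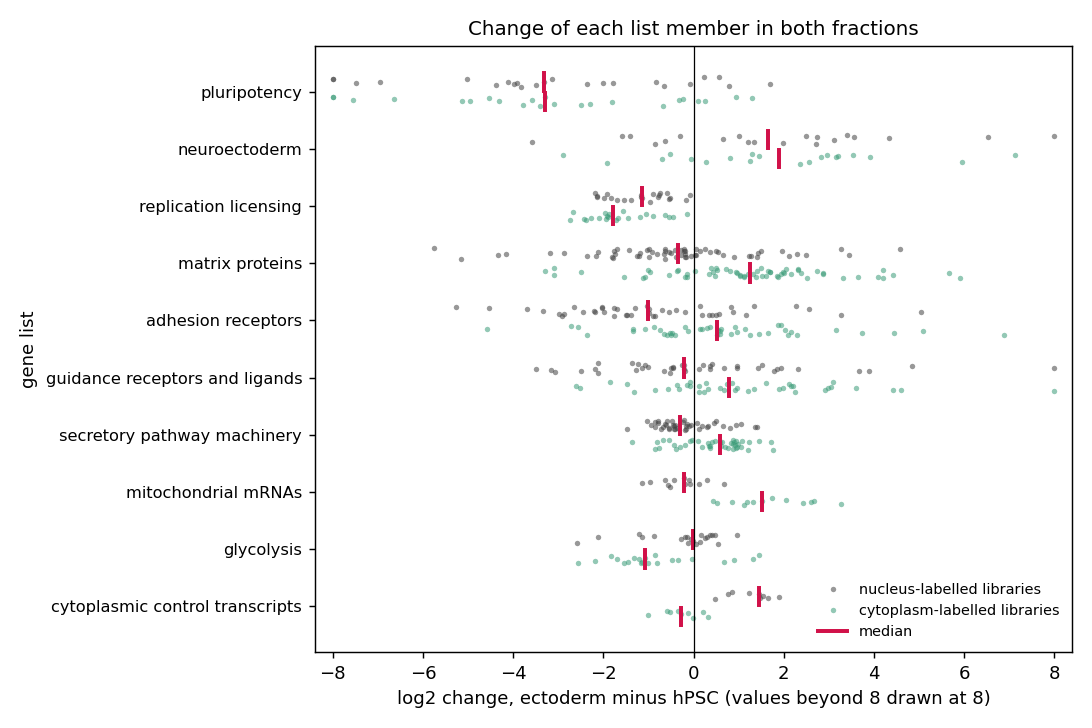
Log2 change, ectoderm over hPSC, of each tested member of 10 gene lists in the nucleus-labelled and the cytoplasm-labelled libraries. Red bars are medians, and values beyond 8 are drawn at 8. Matrix, adhesion, guidance and secretory genes had lower medians in the nucleus-labelled libraries, and cytoplasmic control transcripts a higher one.

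The same pattern was examined without hand-picked lists, by sorting all tested genes on the protein they encode. A hydrophobic stretch was any window of 19 residues with a mean Kyte-Doolittle hydropathy of at least 1.6 in the protein translated from the reference coding sequence. A stretch within the first 40 residues alone is typical of a signal peptide and a later one of a membrane span, though the rule is coarse and put the secreted COL5A1, FN1 and LAMB1 in the class with no stretch. Of 11732 genes with a translated protein, 31.73% rose and 32.34% fell. Genes with an N-terminal stretch only (578) rose in 23.53% and fell in 48.27% of cases, with a median change of -0.42. Genes with an internal stretch (3388) rose in 24.91% and fell in 41.94% (median -0.27). Genes with no stretch (7766) rose in 35.31% and fell in 26.96% (median 0.12).

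In the cytoplasm-labelled libraries the order of the medians was reversed, at 0.35, 0.17 and -0.14. The nucleus-minus-cytoplasm difference was negative for 48.96% and positive for 8.30% of genes with an N-terminal stretch only, and negative for 42.85% and positive for 12.76% of those with an internal stretch. With no stretch it was negative for 15.61% and positive for 34.37%. Genes of a genome are not independent replicates, so these shares are given as a description with no test. The median of the class with no stretch was -0.24 on the authors' TPM, where the medians of the other classes were -0.74 and -0.58.

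**Figure D4:**
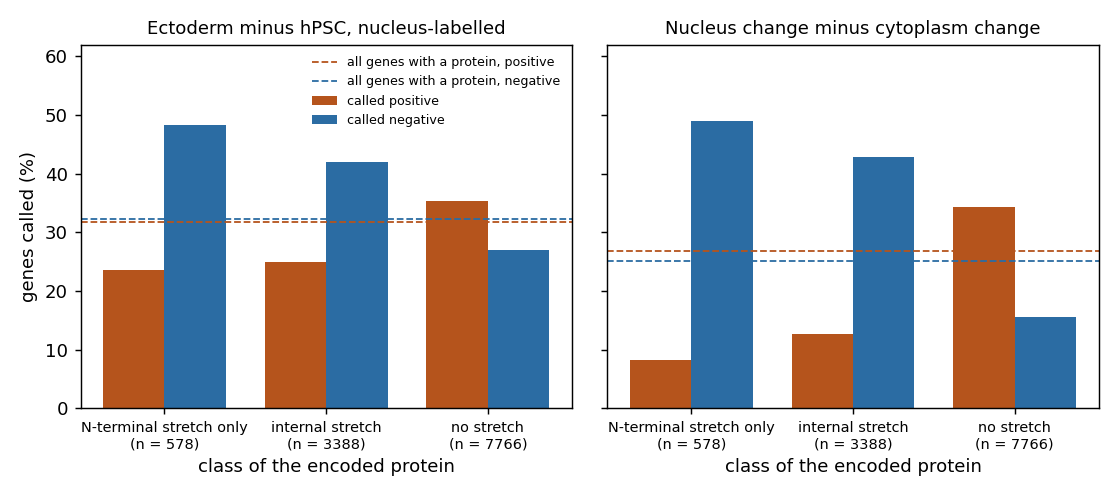
Percent of genes called positive and negative in 3 classes of encoded protein, for the ectoderm-hPSC change in the nucleus-labelled libraries and for the nucleus-minus-cytoplasm difference. Dashed lines mark all genes with a protein. Classes with a hydrophobic stretch had more negative than positive calls in both panels, and the class with no stretch had more positive ones.

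Of 9 cytoplasmic control transcripts, 8 were higher and 0 lower in ectoderm in the nucleus-labelled libraries (median 1.46), and 0 were higher and 3 lower in the cytoplasm-labelled ones (median -0.28). Their difference was positive for all 9. RPLP0, a ribosomal stalk protein, stood at 4594, 6785 and 4816 CPM against 1881, 1316 and 1594 CPM (edgeR adjusted p = 2.5e-04), highest in ectoderm replicate 2. Its cytoplasm-labelled levels were 4227, 4646 and 4245 CPM against 5797, 4889.6 and 4462 CPM (-0.28), and the difference of the changes was 2.21 ± 0.38. EEF1A1, the elongation factor that brings tRNA to the ribosome, stood at 24229, 30014 and 23518 CPM against 10090, 8180.4 and 8826 CPM (1.66 ± 0.29), and at 4.37 on shared transcript models. EEF1A1 has many processed pseudogenes and is uncertain. ACTB, cytoplasmic β-actin, changed by 0.85 and by -0.52 in the 2 fractions.

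The 82 cytosolic ribosomal protein genes, a set chosen after values were seen, carried 11.8% ± 2.42 (SD, n = 3) of counts in nucleus-labelled ectoderm and 4.44% ± 0.803 (SD, n = 3) in nucleus-labelled hPSC. Their cytoplasm-labelled shares were 13.4% ± 1.24 and 14.1% ± 3.97. Of these genes 76 were called higher and 1 lower, with a median of 1.52, and without replicate 2 the median was 1.20. Nucleus-labelled hPSC was the only one of the 4 groups with a low ribosomal protein share. Whether the amount of cytosol left in the pellets had a part in any of these results was not tested.

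Mitochondrial mRNAs were lower in ectoderm by the share above but seldom called gene by gene. Of 13, 0 were higher and 2 lower (median -0.22), while without ectoderm replicate 2, or without TMM scaling, 6 were lower. On the authors' TPM 10 of the 13 were lower, and on shared transcript models 1 of 12. In the cytoplasm-labelled libraries 12 were higher and 0 lower (median 1.52). MT-CYB, cytochrome b, changed by -1.15 ± 0.23. MT-CO1, a subunit of cytochrome c oxidase, stood at 31591, 38645 and 36745 CPM against 38526, 40080 and 45055 CPM and was not called (-0.08 ± 0.32).

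Nuclear long noncoding RNAs gave 4 higher, 4 lower and 5 uncalled of 13 tested, and 2 higher and 5 lower of 12 on the authors' TPM. MALAT1 was not called over all libraries (log2 change 1.04 ± 0.53) and was called at 1.47 without ectoderm replicate 2. MEG3, a maternally expressed imprinted transcript, rose by 4.74, from 1.28 to 1.85 CPM in hPSC to 25.3 to 52.9 CPM in ectoderm. SNHG14, the long imprinted transcript of the Prader-Willi region, stood at 124, 55.9 and 102 CPM against 852, 1039 and 783 CPM (-3.17 ± 0.23). Both were changed with no overlap, and ectoderm replicate 2 was the lowest ectoderm library for each.

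DNA replication licensing genes fell together. Of 22, 20 were lower and 0 higher (median -1.16), and in the cytoplasm-labelled libraries 21 were lower and 0 higher (median -1.80). MCM5, a subunit of the replicative helicase, stood at 81.7, 102 and 86.0 CPM against 339.9, 349 and 369 CPM (-1.84 ± 0.17, edgeR adjusted p = 1.6e-05). MCM3, another subunit, changed by -1.70, the loading factor CDC6 by -1.92 and the sliding clamp PCNA by -1.54. Mitosis genes gave 16 higher, 5 lower and 15 uncalled of 36 (median 0.42). The kinesin KIF20A rose by 1.78, the ubiquitin-conjugating enzyme UBE2C by 1.34 and cyclin CCNB2 by 1.20, while the checkpoint kinase BUB1B and the kinetochore protein CENPF changed by -1.12 and -1.43.

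Chromatin regulators gave 8 higher, 12 lower and 13 uncalled of 33 tested, where over all genes 31.4% rose and 32.5% fell. On the authors' TPM 5 were higher and 15 lower of 32. The Polycomb proteins CBX7 and JARID2 changed by -5.85 and -2.06, and PHC1 stood at 108, 113 and 126 CPM against 1475, 1373 and 1305 CPM (-3.46 ± 0.16). EPOP, which binds the Polycomb enzyme complex, rose by 2.64, and DNMT1, the maintenance methyltransferase, changed by -0.85. Immediate early genes gave 8 higher and 5 lower of 18. JUN stood at 64.1, 62.2 and 56.5 CPM against 10.7, 8.15 and 7.77 CPM (2.90 ± 0.17) and FOSL2 rose by 2.73, while MYC and MYCN changed by -1.55 and -1.81. Heat shock chaperones gave 8 higher and 5 lower of 18.

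In metabolism, cholesterol synthesis genes gave 12 higher, 6 lower and 10 uncalled of 28 (median 0.37), and 6 higher and 7 lower on the authors' TPM (median -0.07). INSIG1, the sterol sensor, FDFT1, squalene synthase, and HMGCS1 rose by 2.13, 1.48 and 1.29. Glycolysis genes gave 2 higher, 5 lower and 14 uncalled of 21 (median -0.02), with 1 higher and 9 lower without ectoderm replicate 2 and 1 higher and 10 lower on the authors' TPM. Their difference from the cytoplasm-labelled change was positive for 13 and negative for 4. HK2, the hexokinase of fast-growing cells, and the lactate carrier SLC16A1 changed by -2.60 and -2.12.

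Set against the other germ layers, the ectoderm nucleus-labelled libraries were compared with endoderm and mesoderm over 10651 genes of all 4 tables. Against endoderm 33.2% of genes were higher and 31.5% lower in ectoderm, and against mesoderm 31% and 35%. These comparisons share the ectoderm libraries with the one against hPSC, so the values are set side by side only. POU5F1 stood at 437, 539 and 534 CPM in endoderm and 307, 411 and 349.7 CPM in mesoderm, and ectoderm was lower by log2 changes of -6.31 and -5.26. No other nucleus-labelled library of any cell type was as low as those of ectoderm. Of 16 pluripotency genes in all 4 tables, ectoderm was higher for 5 and lower for 9 against endoderm, and 3 and 11 against mesoderm. Of 8 neuroectoderm genes it was higher for 5 and lower for 1, and 6 and 2. Of 6 neural crest and non-neural ectoderm genes it was higher for 0 against either, and lower for 6 and 5.

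Matrix genes were lower in ectoderm for 41 and higher for 8 of 55 against endoderm, and for 36 and 8 against mesoderm. Adhesion receptors were lower for 21 and higher for 5 of 32, and for 19 and 6. Replication licensing genes were lower for 14 and higher for 0 of 22, and for 13 and 2. Mitochondrial mRNAs split by partner, lower for 6 and higher for 0 of 13 against endoderm and higher for all 13 against mesoderm. MIR34AHG stood at 14.1, 38.4 and 48.3 CPM in endoderm, where the change to ectoderm was not called (-0.77, edgeR adjusted p = 0.22), and at 3.75, 0.563 and 5.56 CPM in mesoderm (3.00, edgeR adjusted p = 7.2e-04).

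The largest called differences between the fractions, by a rule of size, included the metallothionein MT1G, which binds zinc and copper. Its mean level was 0.336 CPM in ectoderm and 2.78 CPM in hPSC in the nucleus-labelled libraries, and 0.341 CPM and 68.5 CPM in the cytoplasm-labelled ones, a difference of 4.90 ± 1.13 (edgeR adjusted p = 0.0028, n = 3 libraries a group), and 4.14 without cytoplasm-labelled hPSC replicate 1. Metallothionein genes are near-identical neighbours and uncertain. SMCHD1, a chromatin protein that keeps genes silent, stood at 15.5 CPM in ectoderm and 0.332 CPM in hPSC in the nucleus-labelled libraries, and at 73.1 CPM and 0.0246 CPM in the cytoplasm-labelled ones. Its cytoplasm-labelled hPSC level rests on a single count, so its difference is not given. TSPEAR-AS2, an antisense transcript whose reads counting may share with TSPEAR, stood at 1.34 CPM and 52.8 CPM in the nucleus-labelled libraries and was at 0 in each cytoplasm-labelled ectoderm library, so no difference is given for it.

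By gene type, 3743 of 11800 tested protein-coding genes were higher and 3817 lower in ectoderm, where over all genes 31.4% were higher and 32.5% lower. Long intergenic noncoding genes gave 97 higher and 90 lower of 284, antisense genes 63 and 78 of 258, and processed pseudogenes 33 and 16 of 61. The last are copies of mRNAs, and their reads can come from the parent gene.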

How the data were processed

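RNA-seq libraries of nucleus-labelled fractions of ectoderm and hPSC were used, with the cytoplasm-labelled fractions of both and the nucleus-labelled fractions of endoderm and mesoderm for reference. The submitters' processing notes name STAR, RSEM and hg38, without versions or roles. The deposited expected count values per transcript are whole numbers in the authors' tables, with a separate table and assembly for each cell type. The authors also deposited TPM (a length-corrected share of a library), used as an alternative only. For ectoderm, 1 column matched no sample and was not used. Rows were summed per Ensembl gene without version, the tables joined, and transcripts in no Ensembl gene left out (0.292 to 3.876% of counts in the 6 libraries).

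Counts were tested with edgeR 4.0.16 in R 4.3.3 on the 6 libraries, after filterByExpr had removed low genes (minimum count 10) and TMM had set the library factors. The quasi-likelihood F test was two-sided, with Benjamini-Hochberg adjustment and a threshold of 0.05. The standard error was the absolute log2 change over the square root of F. The fraction difference was an interaction term over 12 libraries, and the germ layers were compared in a fit of the nucleus-labelled libraries of all 4 cell types. Cytoplasm-labelled changes were taken from a fit over all 4 fractions of ectoderm and hPSC, which also held the nucleoplasm and chromatin libraries. TPM was tested with limma 3.58.1 on log2(TPM + 1), for genes with a mean of at least 1, and DESeq2 1.42.0 was a further alternative. Tables and figures used Python 3.11.15 with pandas 2.3.3, numpy 2.4.6 and matplotlib 3.10.9.

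The tests were also run on simulated data with known changes, and no result above rests on that run. Floors of 3 counts per library cover counting error only.

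The members, gene lists and tests were chosen with earlier results of these data known. Genes were named by rule: the 10 largest called rises and falls with at least 10 CPM in the higher group and no overlap, the 5 largest fraction differences in each direction, the 5 highest levels per cell type, and members of the lists. Some genes that the rule named are not reported here. Hydropathy classes were planned on RefSeq proteins and were computed from translated GENCODE 29 coding sequences. Gene symbols came from the deposited tables. Promoter and microRNA sequences are from RefSeq, GRCh38.p14. Alternatives changed the scaling, filter, tool, assembly, unit or replicates, and those for the hydropathy classes, the gene lists and the germ layers were added after seeing the data.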

Additional observations from a re-analysis of the deposited data

Results flagged for a closer look

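The nucleus-minus-cytoplasm difference of the ectoderm-hPSC change was tested by an interaction term in edgeR, and 6656 genes of 13268 passed. Among the named genes, 14 were called in both fractions with opposite signs and also had a called difference. Over all 13015 genes in both tests, opposite signs were near even, whether or not the difference was called. Ectoderm was lower in the nucleus-labelled and higher in the cytoplasm-labelled libraries for 439 (3.37%), and the reverse held for 431 (3.31%). The signs of the 14 thus describe the genes chosen for naming and not all genes. The values below are log2 changes in the nucleus-labelled libraries, then in the cytoplasm-labelled libraries, then the difference with its standard error. Ectoderm was lower in the first and higher in the second for the matrix genes COL5A1 (-0.99, 1.86, difference -2.83 ± 0.19), FN1 (-1.43, 0.51, difference -1.91 ± 0.23), COL1A2 (-1.18, 0.51, difference -1.67 ± 0.26) and AGRN (-0.64, 0.97, difference -1.59 ± 0.23). AGRN, the proteoglycan agrin, lost its nucleus-labelled call without ectoderm replicate 3 (-0.61, edgeR adjusted p = 0.072) and without hPSC replicate 2 (-0.51, edgeR adjusted p = 0.058).

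The adhesion genes CELSR1 (-2.20, 0.97, difference -3.16 ± 0.23) and ITGB1 (-0.91, 0.58, difference -1.48 ± 0.24) had the same signs. So did the secretory pathway genes CANX (-0.80, 0.97, difference -1.76 ± 0.23), DDOST (-0.79, 0.93, difference -1.70 ± 0.25) and PDIA3 (-1.04, 0.34, difference -1.36 ± 0.21). Of the Wnt pathway, the receptors ROR1 (-1.96, 0.78, difference -2.72 ± 0.24) and FZD4 (-0.96, 1.03, difference -1.97 ± 0.25) and the secreted antagonist SFRP1 (-0.63, 0.60, difference -1.21 ± 0.26) were in this group. SFRP1 was not called without ectoderm replicate 3 (-0.57, edgeR adjusted p = 0.075). The mitochondrial mRNA MT-CO3 (-0.98, 0.51, difference -1.46 ± 0.42) was not called without ectoderm replicate 3 (-0.95, edgeR adjusted p = 0.078) or hPSC replicate 3 (-0.90, edgeR adjusted p = 0.065). ACTB (0.85, -0.52, difference 1.39 ± 0.34) was the gene of the reverse sign.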

How the results depend on the processing

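Called genes numbered 8319, and between 7201 and 9153 when 1 library was left out. They were 4968 with a 2-fold minimum. The other 10 settings for this count gave 6090 to 9191. The fraction difference was called for 6656 genes, for 5558 to 6899 with 1 library left out, and for 4039 on transcript models shared by both assemblies, where fewer genes were tested (10471). The mitochondrial share differed by -4.67 points, by -5.12 to -4.00 with 1 library left out, and by -14.05 as a share of the authors' TPM. For the 217 named genes, 3578 alternative values of the nucleus-labelled change gave 3477 with the same call and direction, 70 that lost and 28 that gained a call, and 3 that changed sign, all for MT-CO1, whose change of -0.08 became 0.0144 on shared transcript models and ranged from -0.27 to 0.0552 with 1 library left out, never called. For the difference, 825 values of 49 genes gave 801 the same and 24 that lost a call. The class median of genes with no hydrophobic stretch was 0.12, and -0.24 on the authors' TPM. Without ectoderm replicate 2, the percent falling in the 3 classes was 51.13, 45.9 and 30.39, the percent with a negative difference 50.69, 44.36 and 15.21, and the medians -0.43, -0.26 and 0.10 for the change and -0.79, -0.54 and 0.23 for the difference. Of 166 named genes in all 4 tables, 136 and 135 were called against endoderm and mesoderm, and 133 and 131 without replicate 2. Same-numbered libraries of the groups had correlations of deviations of -0.17, -0.38 and -0.12. Deviations from means of 3 libraries cannot decide whether the numbers pair them. With the replicate number as a block, 7345 and 6368 genes were called, and 213 of 217 and 48 of 49 named genes kept their call. Depth limited genes under the filter.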
